A study of Caenorhabditis elegans with 3 samples.

Results

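Innexins are the proteins that form gap junctions in invertebrates, channels that join the interior of neighbouring cells and let small molecules pass. In the hermaphrodite gonad of *Caenorhabditis elegans* they join the germ cells to the somatic cells that surround them. On the somatic side *inx-8* and *inx-9* encode the channel subunits of the gonadal sheath. On the germ cell side INX-14 works with INX-21 in junctions needed for germ cell proliferation and with INX-22 in junctions that hold oocytes in meiotic arrest until sperm signal. These 5 genes were listed by name, and a gene counted as measured where a probe carried its symbol and no other in the platform annotation. That held for *inx-8*, *inx-9* and *inx-14*, each with 1 probe, so 3 of the 5 genes are described, among 14936 named genes and 19075 features in all. For *inx-21* and *inx-22* the annotation used here listed no probe, and they were not analysed here.

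RNA of mid-L3 animals was compared on 3 two-colour arrays with a reference RNA. At this larval stage the gonad is still growing and holds no mature gametes. Each array carried 1 of 3 preps of mid-L3 RNA in the second channel and the same reference, labelled wild type and mixed, in the first. The labels give no age in hours and state no genotype for the mid-L3 animals. They do not say what their prefix TP01 stands for or what the reference mixes. Nor do they say whether the preps came from separate cultures, so p-values cover only these preps. The variance behind a p-value comes mostly from other features, not from the gene's own spread between preps. As the labels name no dissected tissue, a difference in the number of gonad cells and one in the RNA per gonad cell cannot be told apart.

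Each value is a log2 ratio of the channels, centred here on the median of its array. Which channel is the numerator is not given in the sources used here, so ratios are called positive or negative with the sign as deposited, and no value below says in which RNA a gene was more abundant. The arrays correlated positively over all probes. The ratios of preps 1 and 2 correlated at 0.739, of preps 1 and 3 at 0.810 and of preps 2 and 3 at 0.760. The ratio against 0 was tested in limma over all features, and a Benjamini-Hochberg adjusted p under 0.05 is the threshold throughout. No intensity or background value was used, so how bright a spot was is unknown.

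The 3 measured gonadal innexin genes had negative ratios on every array. All 3 passed the threshold on the negative side, as did 13.6% of all features (27.1% passed on either side), and the size was between 3.11-fold and 4.09-fold. Both sides of the junction were among them, the somatic pair *inx-8* and *inx-9* and the germline gene *inx-14*.

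On the somatic side, *inx-9* gave log2 ratios of -1.86 in prep 1, -2.14 in prep 2 and -2.09 in prep 3. The 3 arrays lay close together, with a mean of -2.03 ± 0.15 (SD, n = 3, as for all errors here), a 4.09-fold difference that passed the threshold (limma adjusted p = 1.33323e-05). It lay at the 2.71, 1.42 and 2.26 percentile of the 14936 named genes on the arrays of preps 1, 2 and 3.

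Its neighbour *inx-8* gave -1.55 in prep 1, -0.84 in prep 2 and -2.51 in prep 3. This gene was the most variable of the 3, and its range held all 3 values of *inx-9*. Its mean was -1.63 ± 0.84, a 3.11-fold difference (limma adjusted p = 0.00095825). It stood at the 3.97, 9.996 and 1.48 percentile of named genes in preps 1, 2 and 3, the least extreme place of any of the 3 genes on any array being that in prep 2. The mean was -2.03 without prep 2 and -1.19 without prep 3, past the threshold in both cases. P-values from 2 arrays are not comparable with those from 3. Without prep 3 limma used a variance pooled over all features in place of the gene's own.

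On the germline side, *inx-14* gave -2.07 in prep 1, -1.17 in prep 2 and -1.78 in prep 3. Prep 2 was again the least negative. The mean was -1.67 ± 0.46, a 3.19-fold difference (limma adjusted p = 0.000145527), and the percentiles among named genes were 2.13, 5.65 and 3.08.

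**Figure D1:**
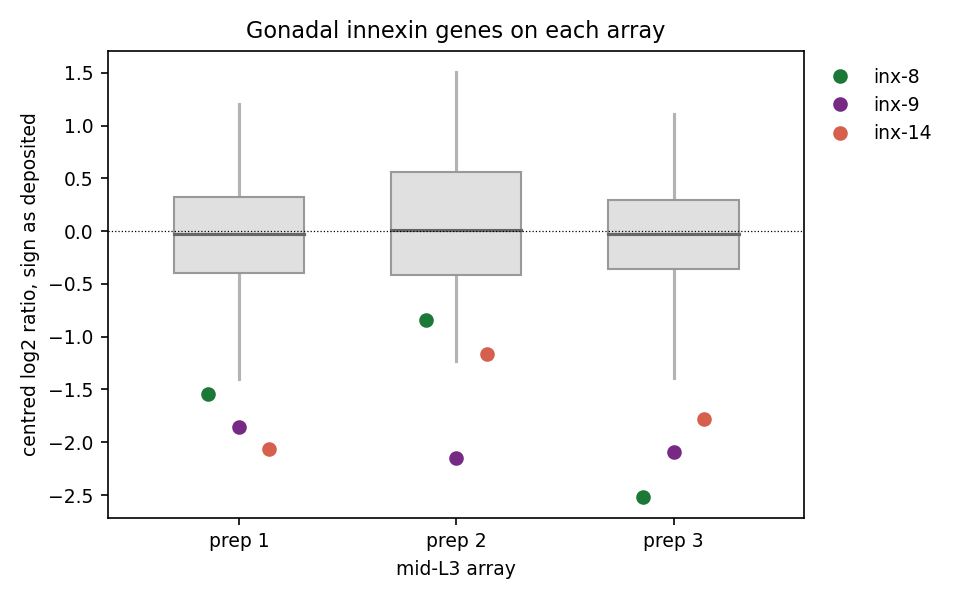
Centred log2 ratio (vertical axis, sign as deposited) of *inx-8*, *inx-9* and *inx-14* on each of the 3 mid-L3 arrays, 1 point per gene and array. Grey boxes span the 25th to 75th percentile of the 14936 named genes with the median as a line, and grey whiskers the 5th to 95th. All 9 points are below 0, and in prep 2 *inx-8* and *inx-14* lie inside the whiskers while *inx-9* lies below them.

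The order of the means was *inx-9*, *inx-14*, *inx-8* from the lowest up, and no neighbours in it differed beyond their spread. Within arrays *inx-14* exceeded *inx-9* by 0.36 ± 0.59, with values of -0.21, 0.98 and 0.31 in preps 1, 2 and 3. The difference of *inx-14* minus *inx-8* was -0.04 ± 0.68. Between the somatic genes, *inx-8* minus *inx-9* was 0.31, 1.3 and -0.42 in preps 1, 2 and 3, a mean of 0.40 ± 0.86. Each of these 3 differences changed sign between arrays, and a sign-flip permutation test over 3 arrays cannot give a p below 0.25, so none was run. The SDs are wide, and these differences do not show that the genes have equal ratios.

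*inx-8* and *inx-9* are close paralogues and lie next to each other on chromosome IV in the RefSeq gene table of assembly WBcel235, with no protein-coding gene between them. RNA of one may therefore bind the probe of the other. That was not tested, and the pair should not be counted as independent genes. The next protein-coding gene beyond *inx-9*, *ZK792.4*, lay at 0.49 ± 0.65 and the one after it, *ZK792.5*, at 0.11 ± 0.23, and neither passed the threshold (limma adjusted p = 0.169092 and 0.738402). On the far side of *inx-8*, *atg-4.2* was not analysed here.

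Around *inx-14*, on chromosome I, both adjacent protein-coding genes were also negative. The gene on one side, *kbrl-1*, lay at -1.13 ± 0.31 and the gene on the other, *spsp-1*, at -1.73 ± 0.20, both negative past the threshold (limma adjusted p = 0.00121978 and 4.62691e-05). The next genes out, *gcsh-2* at -0.01 ± 0.09 and *scav-6* at 0.34 ± 0.37, did not pass. These genes were named for their place beside the innexin genes, a choice made after the ratios of the innexins were known. *inx-21* and *inx-22* also lie side by side on chromosome I in that table.

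To set each innexin probe against the probes listed near it, the value table was split into 32 equal runs of consecutive probes. Whether a run is a region of the slide was not determined. Run medians spread from -0.25 to 0.40 in prep 1, from -0.34 to 0.60 in prep 2 and from -0.16 to 0.25 in prep 3. *inx-8*, *inx-9* and *inx-14* lay in 3 different runs. Less the median of its run, *inx-9* was at -2.26, -2.33 and -2.14 in preps 1, 2 and 3. *inx-8* was at -1.65, -1.19 and -2.64, and *inx-14* at -2.0, -1.2 and -1.67. Within their runs the 9 values stood between the 1.29 and the 6.10 percentile. Every run median was closer to 0 than any of the centred values, so subtracting it could not change their sign. In prep 2 *inx-8* stood at the 9.996 percentile of named genes and at the 6.10 percentile of its run.

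The rest of the innexin family gave a comparison within 1 protein family whose members serve other tissues. Of 25 innexin genes 22 were measured, and *inx-2*, like *inx-21* and *inx-22*, was not analysed here. Among the 19 measured innexins outside the gonadal list, 4 were positive and 2 negative past the threshold (13.5% and 13.6% of all features). The negative count is near the share over all features, and 13 genes passed in neither direction. Their median was 0.24, against -1.67 for the 3 gonadal genes and 0.01 for all features. In the family the gonadal genes had the 3 lowest means. They were also the 3 lowest of 22 in prep 1 and in prep 3. In prep 2 *inx-9* was the lowest, followed by *inx-3*, then *inx-14* and then *inx-8*. Whether the gonadal genes differ from the other innexins was not tested.

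The lowest of the other innexins was *inx-3*, a broadly expressed gene with a role in the embryo. It gave -1.28, -1.41 and -1.29 in preps 1, 2 and 3, a mean of -1.32 ± 0.08 (limma adjusted p = 0.00024816), and the arrays hardly differed. *inx-7* followed at -0.80 ± 0.24 and did not pass without prep 1 (-0.67, limma adjusted p = 0.085208). *inx-11*, named after its value was seen, was at -0.79 ± 0.84 with 0.17 in prep 2, and did not pass (limma adjusted p = 0.0523902).

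On the positive side the highest was *inx-13* at 1.04 ± 0.30, next to *inx-12* at 1.04 ± 0.54. Both are known for a function in the excretory canal, and they lie side by side on chromosome I. *inx-12* gave 0.61, 0.87 and 1.64 in preps 1, 2 and 3 and did not pass without prep 3 (0.74, limma adjusted p = 0.075938). *inx-17* was at 1.00 ± 0.59 and *inx-5* at 0.66 ± 0.19. *inx-17* did not pass without prep 2 (0.75, limma adjusted p = 0.0833574), nor *inx-5* without prep 1 (0.59, limma adjusted p = 0.148798) or without prep 3 (0.62, limma adjusted p = 0.16209). The count of positive genes was 2 without prep 3, and that of negative genes 1 without prep 1. With a minimum of 1.5-fold in limma's treat test, 0 of the other innexins were positive (3 at an unadjusted p under 0.05) and 1 negative, while the 3 gonadal genes passed.

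The next 5 genes were picked from the 13 that passed in neither direction, after their values were seen, as examples from other tissues. *unc-7* and *unc-9*, which couple neurons and muscles for locomotion, were at -0.14 ± 0.16 and -0.10 ± 0.44. *inx-6* and *eat-5*, of the pharynx, were at 0.28 ± 0.32 and 0.51 ± 0.61, and *inx-16*, of the intestine, at 0.31 ± 0.28. None of these 5 passed the threshold (limma).

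**Figure D2:**
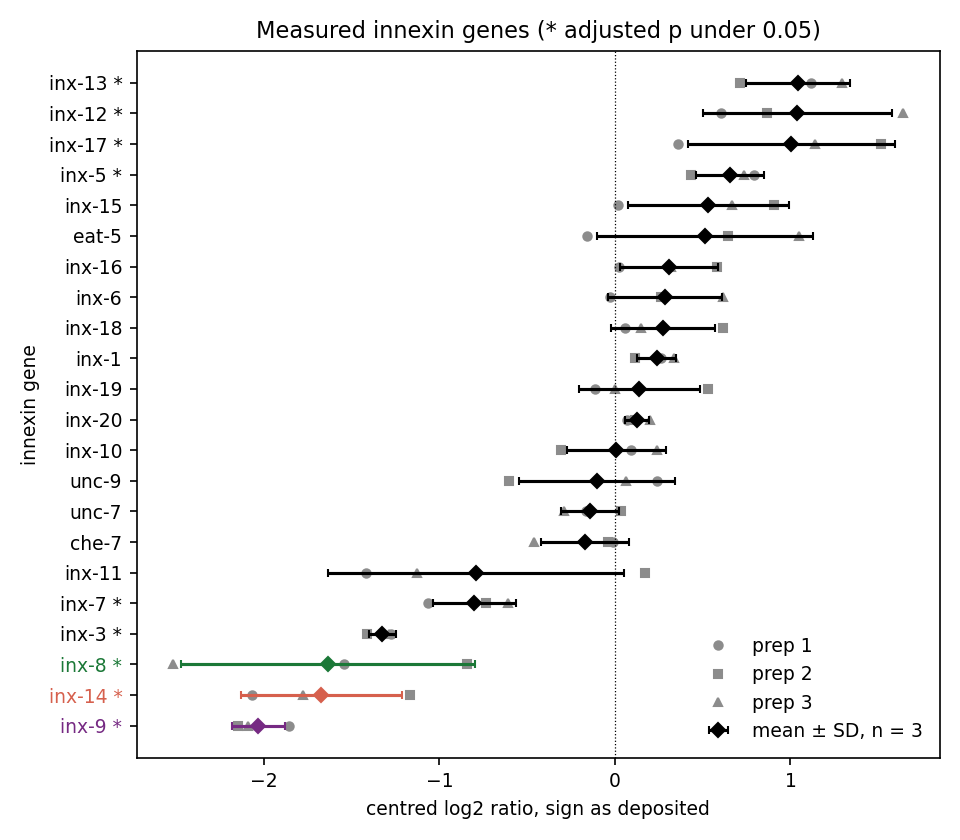
The 22 measured innexin genes (vertical axis) by centred log2 ratio (horizontal axis, sign as deposited). Grey symbols are the arrays of preps 1, 2 and 3, diamonds with bars are mean ± SD (n = 3), asterisks mark a limma adjusted p under 0.05, and the gonadal genes are coloured. The 3 gonadal genes have the lowest means, followed by *inx-3*, and the bar of *inx-8* is far wider than that of *inx-9*.

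No measured gene on the somatic gonad list had a mean as low as those of *inx-8* and *inx-9*. Of 18 measured genes of the sheath, spermatheca, distal tip cell and early gonad, 4 were positive and 1 negative past the threshold (13.5% and 13.6% of all features), with a median of 0.14 (0.06, 0.18 and 0.12 in preps 1, 2 and 3). *fln-1*, the filamin gene needed in the spermatheca, was at 1.11 ± 0.20, and *itr-1*, the IP3 receptor gene of sheath and spermathecal contraction, at 0.93 ± 0.58. *gon-4*, needed for gonad formation, was at -0.89 ± 0.28. The positive genes numbered 2 when any of the 3 preps was left out, and the negative ones 2 without prep 2. *itr-1* did not pass without prep 2 (limma adjusted p = 0.0983077). Many genes of the list act outside the gonad as well. Regulators of sheath cells, named after their values were seen, were *lim-7*, a LIM homeobox gene, at -0.32 ± 0.17 and *ceh-18*, a POU homeobox gene, at 0.29 ± 0.10, and neither passed (limma adjusted p = 0.24968 and 0.290109).

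Genes of germ cells, the tissue of *inx-14*, were found on both sides of 0. The list of proliferation and meiotic entry held 14 measured genes, of which 2 were positive and 4 negative (13.5% and 13.6% of all features), with a median of -0.16. The positive count is near the share over all features. *mex-3*, for a KH domain RNA-binding protein, was at -1.46 ± 0.46, and *gld-1*, for a translational repressor, at -1.43 ± 0.77. *gld-3*, for a Bicaudal-C protein, was at -1.26 ± 0.23. The 2 positive genes were *fbf-2* at 1.07 ± 0.43 and *fog-3* at 0.73 ± 0.55, named after their values were seen. *glp-1*, the Notch receptor gene of germline stem cells, was named after its value was seen and did not pass at -0.36 ± 0.11 (limma adjusted p = 0.179803). There was 1 positive gene when prep 2 was left out, and 1 when prep 3 was.

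The list of oocyte meiotic maturation, the process that the sheath junctions hold back, had 2 positive and 6 negative among 17 measured genes (13.5% and 13.6% of all features), and a median of -0.13. Here too the positive count is near the share over all features. Its low tail was long. *puf-5*, for an RNA-binding protein of growing oocytes, gave -3.95, -2.75 and -4.38 in preps 1, 2 and 3, a mean of -3.69 ± 0.85. *rme-2*, the yolk receptor gene of oocytes, was at -2.86 ± 0.14 and *oma-2*, of oocyte maturation, at -2.72 ± 0.44. All 3 lay below every gonadal innexin by their means. The 9 genes that passed in neither direction had means from -0.24 (*lip-1*) to 0.46 (*gsa-1*), among them the G protein gene *goa-1* at -0.04 ± 0.11. *kin-2*, the regulatory subunit gene of protein kinase A, was positive at 0.94 ± 0.02. These 4 genes were named after their values were seen. The positive genes numbered 1 without prep 2.

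Among 17 measured genes listed for germ cell identity, 4 were positive and 9 negative (13.5% and 13.6% of all features), with a median of -0.60. The lowest were *pos-1* at -2.90 ± 0.32, *spn-4* at -2.65 ± 0.47 and *nos-2* at -2.16 ± 0.63, whose RNAs are known as maternal products laid down in oocytes. The positive genes were *glh-1* at 1.87 ± 0.48, *glh-2* at 1.29 ± 0.24, *prg-1* at 1.04 ± 0.52 and *pgl-1* at 0.75 ± 0.32, which act in germ granules or their small RNAs and were named after their values were seen. Germ granule genes were not all positive, with *pgl-3* at -0.74 ± 0.14 and *glh-3* at -0.60 ± 0.17 negative past the threshold (also named after their values were seen). *inx-14*, at -1.67, lay below all of these granule genes. The other negative genes of the list were *mex-5* at -2.09 ± 1.32, *pie-1* at -1.75 ± 0.06, *htp-1* at -1.37 ± 0.17 and *him-3* at -1.03 ± 0.17. They too were named after their values were seen. The lowest oocyte and maternal genes shared the negative sign of the innexins, and their part in the innexin result was not tested.

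**Figure D3:**
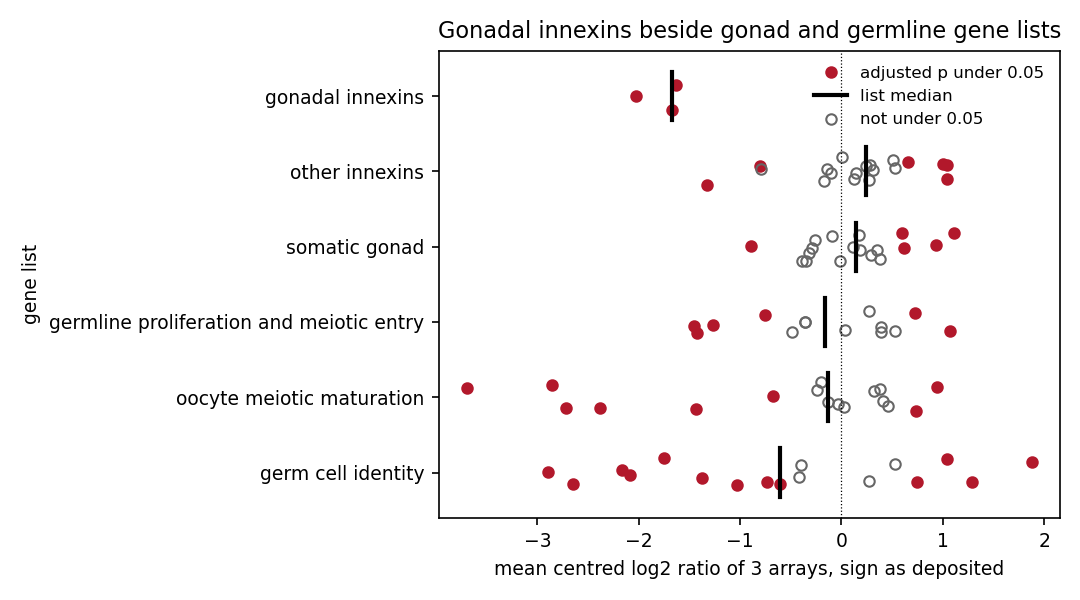
Mean centred log2 ratio of 3 arrays (horizontal axis, sign as deposited) for the measured genes of 6 lists (vertical axis), 1 point per gene, scattered vertically for legibility. Filled points passed the limma threshold, open points did not, and black lines are list medians. The gonadal innexins sit around their median of -1.67, while the medians of the other lists run from -0.60 to 0.24.

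Genes with the most similar ratios were found by the root mean square difference of centred log2 ratios over the 3 arrays, among 14935 other named genes. Nearest to *inx-14* was *puf-6*, for an RNA-binding protein of the PUF family, at a difference of 0.02, with -2.06, -1.15 and -1.75 in preps 1, 2 and 3. *hrde-1*, the nuclear Argonaute gene of inherited RNA interference in the germline, followed at 0.10, and *W10G11.1* at 0.12. The 2 genes nearest to *inx-9* were *F26F12.3* at 0.08 and *F54F7.3* at 0.09. Nearest to *inx-8* were *spp-18*, a saposin-like gene, at 0.14, *F53F4.7* at 0.15 and *nnt-1*, a mitochondrial transhydrogenase gene, at 0.17. Likeness over 3 arrays that share a reference is a description and says nothing of shared function.

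By the same measure the gonadal innexins were not each other's closest genes. From *inx-8* the difference was 0.55 to *inx-14*, at rank 107, and 0.81 to *inx-9*, at rank 516. From *inx-9* the difference to *inx-14* was 0.60, at rank 293. The paralogues *inx-8* and *inx-9* were the least alike of the 3 pairs, with the widest gap in prep 2.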

How the data were processed

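The members, gene lists and alternatives were chosen with earlier results of these data known. The authors deposited 1 log2 ratio per probe and array. How they scanned, background-corrected and normalized the arrays, and with which dyes, is not given in the sources used here. The base 2 was read from the values, since 97.9%, 97.0% and 98.3% of them in preps 1, 2 and 3 gave whole thousandths (tolerance 0.001 of a thousandth) when 2 was raised to them. Deposited medians were 0.0272, -0.0664 and 0.0328, near 0. Whether and how the authors had centred the arrays, and the direction of the ratio, stay unknown. Of 20000 probes, 372, 126 and 137 lacked a value.

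In the platform annotation 15655 probes carried 1 gene symbol, 198 several and 4147 none. Entrez identifiers linked 15569 of the first kind to current symbols in the RefSeq table of WBcel235. No coordinates are given, as the file names no genome build. Each array was centred on its median over all probes and probes of a gene were averaged. The 19075 features with a value on all 3 arrays (14936 named) entered limma 3.58.1 (R 4.3.3), with an intercept-only lmFit, eBayes and two-sided p-values. The variance behind a p-value comes mostly from other features, with 9.23 prior against 2 residual degrees of freedom, while the SDs are each gene's own. The test leaves out how the reference itself varies, and the number of arrays limits the precision. No filter on low values was made. The fit was also run on simulated data with normal noise drawn from its own variances, which checks the code and not these arrays.

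Named genes were the members, other innexins past the threshold with the highest and the lowest, the 3 genes farthest from 0 in each list among those past it with 1 sign on all arrays, and the 3 genes nearest each member, of which 1 is not reported here. Other genes are marked as named after their values were seen. The alternatives changed the centring, the scaling, the number of arrays required, the averaging of probes, the weights, the moderation or the minimum fold, or left out 1 prep. Plots were made in matplotlib 3.10.9 (Python 3.11.15).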

Additional observations from a re-analysis of the deposited data

How the results depend on the processing

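*inx-8*, *inx-9* and *inx-14* stayed negative and past the threshold under all 13 alternatives. Their mean log2 ratios ran from -2.03 to -1.19, from -2.24 to -1.98 and from -1.92 to -1.47, and the highest limma adjusted p was 0.0189046, 0.00298398 and 0.00348202. The differences between the 3 genes had 10 alternatives and moved by less than their SD in the main analysis. Those of *inx-14* minus *inx-8* ran from -0.42 to 0.21, and of *inx-8* minus *inx-9* from -0.06 to 0.81, changing sign. *inx-14* minus *inx-9* exceeded its own SD with centring within runs (0.62 ± 0.45) and without prep 1 (0.64 ± 0.47, n = 2). Without prep 3, *inx-14* minus *inx-8* (-0.42 ± 0.14, n = 2) and *inx-8* minus *inx-9* (0.81 ± 0.70, n = 2) did so too. Under the other alternatives each difference stayed within its SD. The minimum of 1.5-fold, a stricter test by construction, left 780 positive and 862 negative features of 2569 and 2602, 0 positive and 1 negative of the other innexins, and 2 positive of 12 and 14 negative of 20 genes on the 4 gonad and germline lists. By list that test left 0 of 4 positive and 0 of 1 negative somatic gonad genes, 0 of 2 positive genes of proliferation and meiotic entry, 0 of 2 of oocyte maturation and 2 of 4 of germ cell identity. The negative genes were 3 against 4 for proliferation, 5 against 6 for oocyte maturation and 6 against 9 for germ cell identity. At an unadjusted p under 0.05 (limma treat) the positive genes were 3 of the other innexins, and 1 each on the somatic gonad, proliferation and oocyte lists, with 0 negative somatic gonad genes. Scaling by median absolute deviation left 1 positive gene of proliferation, centring within runs 1 of oocyte maturation, and array weights gave 2 negative somatic gonad genes. With a prep left out, the positive other innexins numbered 2 to 5, the negative ones 1 to 3, and the positive list genes 7 to 10. The cause of these last shifts was not tested. Without prep 1 or prep 3 the estimated prior degrees of freedom were infinite, so p-values from 2 arrays are not comparable with those from 3. No paired analysis was possible because the arrays form a single group. The lack of intensities limits what can be said of dim spots.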
